A study of Mus musculus with 6 samples.

Results

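The conducting polymer PEDOT-S was added to an IKVAV peptide scaffold under mouse cortical neurons, and the transcriptome was set against that of neurons on the IKVAV scaffold alone. The comparison takes 4 of the 6 libraries of the series, chosen by the library names: 2 named for IKVAV plus PEDOT-S, labelled PA + PS2, and 2 named for IKVAV only, labelled PA. Repeat 1 was paired with repeat 1 and repeat 2 with repeat 2. Of 54232 genes listed, 17299 had enough reads in the 6 libraries to be tested. All libraries came from wildtype cells labelled CD1, an outbred mouse stock, and the cell type is given as cortical neuron in each. The other 2 libraries, the control named for PDL (poly-D-lysine, a coating to which neurons attach), had no scaffold in their library name, although the treatment field of all 6 libraries reads peptide amphiphile. They entered the model of spread and are shown for reference.

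A peptide amphiphile is a short peptide with a fatty tail that assembles in water into long fibres. IKVAV is a sequence of the alpha chain of laminin, a basement membrane protein that neurons and neural progenitors bind through integrins. PEDOT is a polymer that conducts electricity, and its sulfonated forms dissolve in water. The labels do not spell out PS2, and its link to PEDOT-S comes from the library names, which read PEDOT-S_OH. The scaffold's polymer content, the age of the animals, the days in culture, any electrical stimulation and whether the repeats were separate cultures or animals are not stated in the labels. The p-values therefore measure only the spread between these libraries, which may be technical.

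The 4 libraries held between 30714311 and 31819918 counts each, and mitochondrially encoded genes took 1.20% to 1.78% of them. That share rests on part of these genes, since 6 of 13 mitochondrially encoded mRNAs had almost no counts in any library. Levels are given as CPM, the gene's counts scaled to 1000000 counts of the library, with repeat 1 before repeat 2. Neuronal genes were high everywhere: Tubb3, the neuronal beta tubulin, lay between 1645 and 1931 CPM in the 4 libraries, and Map2, a dendritic microtubule protein, between 2165 and 2391 CPM. Proliferating, glial and mural cell genes were present at lower levels. Repeats differed strongly within each group: the first principal component of the 6 libraries, 33.5% of the variance, separated the repeat numbers, and the second, 29.5%, set PA + PS2 repeat 2 and to a lesser degree repeat 1 apart from the others. PA repeat 2 held the highest levels of many glial, progenitor and mitotic genes. Counts from bulk RNA cannot tell fewer cells of a type from less RNA per cell.

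Most of the genes called in IKVAV with PEDOT-S against IKVAV alone were lower. At an adjusted p under 0.05 (edgeR's quasi-likelihood test with the repeat number as a block, Benjamini-Hochberg adjustment over all genes), 280 of 17299 genes (1.62%) differed, of which 241 (1.39%) fell and 39 (0.225%) rose. Over all genes tested no such lean was seen: 8770 had a log2 fold change above 0 and 8529 below. The counts of list members given below are to be read against these shares and counts. The genes that fell had few reads, with a median level of 7.16 CPM against 13.8 CPM over all genes tested, and had a median log2 fold change of -1.31. Those that rose were abundant, with a median of 68.1 CPM, and the changes were small, with a median log2 fold change of 0.50. Fold changes of at least 2 were found in 156 of the genes that fell and 6 of those that rose. Both PA + PS2 libraries lay on one side of both PA libraries in 234 of the 241 and 36 of the 39, where 18.4% and 16.7% of all genes did so in these directions. The genes were called on these same libraries, so this separation largely follows from the choice of genes. In the PDL control, the mean level lay nearer to PA than to PA + PS2 for 210 of the 241 genes and all 39, and for 10981 of all genes tested.

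The calls rested on PA + PS2 repeat 2 and on the pairing. Without that library no gene passed with edgeR (smallest adjusted p = 0.0603), while 1176 of 18408 genes (6.39%) had an unadjusted p under 0.05. Without the pairing edgeR called 0 genes, with 1314 (7.60%) at an unadjusted p under 0.05, and DESeq2 called 200 (1.16%). Without PA repeat 2, 96 genes (0.526%) passed, of which 71 were among the 280; where a call below was lost without PA repeat 2, this is stated. Calls and adjusted p-values below are those of edgeR with the block unless another tool is named. In every one of these fits all 280 genes kept the sign of their change. Each of the 280 had the same sign in both repeats and was called on these libraries, so this was nearly fixed in advance. Without PA + PS2 repeat 2 the genes called lower had a median log2 fold change of -0.96 and those called higher 0.42. The change was larger in repeat 2 than in repeat 1 for 208 of the 241 genes that fell and 31 of the 39 that rose. The same held for 10877 of all 17299 genes tested. Leaving out any 1 library other than PA + PS2 repeat 2 left 52 of the 280 calls standing in each of the 5 fits, 47 lower and 5 higher. Fst, Nos1, Lmo4 and Zbtb20, the last named here because of this count, were among the 5.

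**Figure D1:**
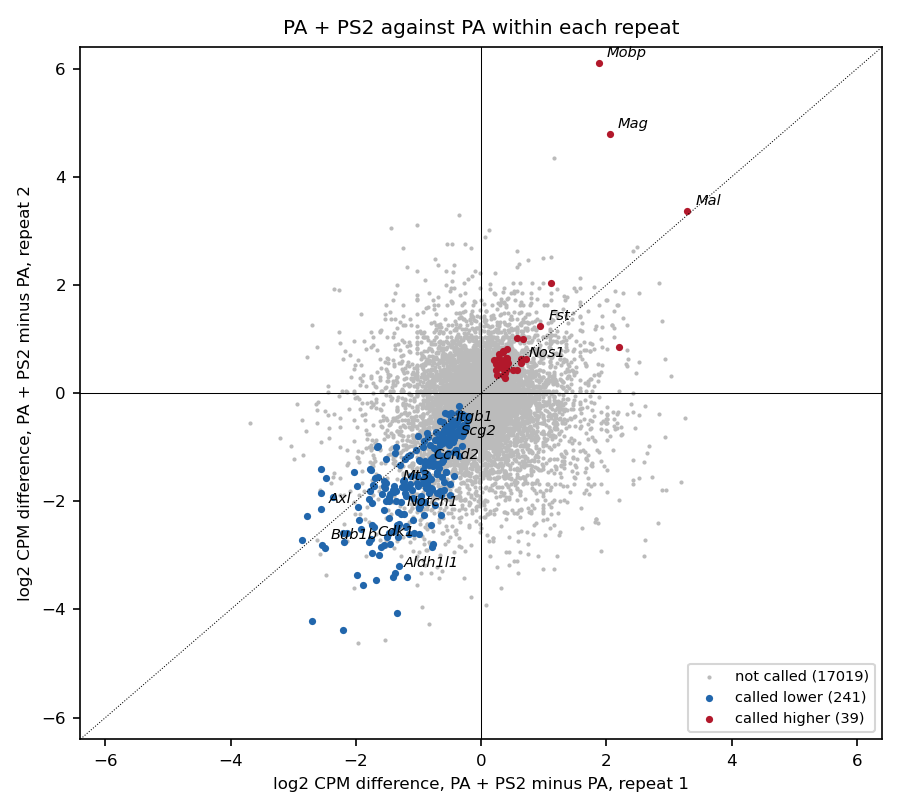
Log2 CPM difference, PA + PS2 minus PA, in repeat 1 (x axis) and repeat 2 (y axis) for all 17299 genes tested, with the 241 genes called lower in blue, the 39 called higher in red and a dotted line of equal change. The blue points lie in the lower left, mostly below the line of equal change, and the red points in the upper right. Mobp, Mag and Mal stand farthest out among the genes named in the upper right.

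Across all genes the repeats had little in common: the log2 differences of repeat 1 and repeat 2 had the same sign in 54.5% of genes, and Pearson's r across genes was 0.19 (0.42 over the 10767 genes at 5 CPM or more). Genes of a library share its depth and composition, so this is a description. Precision depended on level: the median standard error of the log2 fold change was 0.63 for genes under 1 CPM, 0.16 from 5 to 20 CPM and 0.07 above 100 CPM.

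Mitosis genes fell the most. Of the 24 tested genes of a mitosis and spindle list, 15 fell, none rose and 9 did not pass, and the list's median log2 fold change was -1.47 against 0.00 over all genes. The median was -0.82 in repeat 1 and -2.0 in repeat 2, and it was -0.99 without PA + PS2 repeat 2. Summed over the list, the level was 170.7 and 364.8 CPM in PA and 88.2 and 94.4 CPM in PA + PS2, with the PDL control at 158 and 278.9 CPM. The PA + PS2 libraries were thus alike and the PA and control libraries were spread widely, with repeat 2 above repeat 1 in both.

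Bub1b, a kinase of the spindle checkpoint (chr2:118598211-118641591 in GRCm38), had 4.94 and 10.01 CPM in PA and 0.797 and 1.36 CPM in PA + PS2. Both PA + PS2 libraries lay below both PA libraries and below the control (3.46 and 6.85 CPM), and the level was 6.88-fold lower (log2 fold change -2.78, SE 0.26, adjusted p = 0.00142). Cdk1, the kinase that drives entry into mitosis, had 5.88 and 11.7 CPM in PA and 1.66 and 1.69 CPM in PA + PS2 (log2 fold change -2.37, SE 0.27, adjusted p = 0.00257). Its partner cyclin Ccnb1 fell alongside it, from 4.39 and 9.15 CPM to 1.12 and 1.56 CPM (log2 fold change -2.33, SE 0.27, adjusted p = 0.00279). Top2a, which untangles DNA before chromosomes separate, had 25.2 and 60.1 CPM in PA and 9.59 and 10.3 CPM in PA + PS2 (adjusted p = 0.0209). The spindle motor Kif11 fell from 8.78 and 18.1 CPM to 4.43 and 4.19 CPM (adjusted p = 0.00808), and without PA repeat 2 it did not pass (adjusted p = 0.0782). Of the 15 genes that fell, 6 also passed without PA repeat 2. Mki67, the proliferation marker, named here after its values were seen, had 18.1 and 55.6 CPM in PA and 10.1 and 8.22 CPM in PA + PS2 and did not pass (adjusted p = 0.383).

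Other cell cycle genes fell too. Ccnd2, a cyclin of the step from G1 to S phase in neural progenitors, had 80.0 and 144 CPM in PA and 42.8 and 57.4 CPM in PA + PS2 (log2 fold change -1.12, SE 0.10, adjusted p = 0.00142), with the control at 70.8 and 118 CPM. It did not pass with DESeq2 without the block (adjusted p = 0.321). Of 24 replication and S phase genes, 4 fell and 20 did not pass (median log2 fold change -0.39), and none of the 4 passed without PA repeat 2. They were Mcm2 and Mcm3 of the replicative helicase, the ribonucleotide reductase subunit Rrm2, and Uhrf1, which carries DNA methylation through replication and did not pass with DESeq2 and the block (adjusted p = 0.0978). Mcm2 had 14.0 and 20.2 CPM in PA and 7.78 and 11.5 CPM in PA + PS2 (adjusted p = 0.0125). The difference between the mitosis and the replication list was not tested.

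Since the mitosis genes moved together, their promoters were searched for 6 short motifs in the 250 bases before the RefSeq start (GRCm38.p6), on both strands. The CCAAT box, CCAAT or ATTGG, to which the factor NF-Y binds, lay in 16 of the 20 mitosis genes with a promoter sequence (80.0%), and in 11 of the 13 among them that fell (84.6%). It lay in 40.2% of the 11692 tested genes with a promoter, and in 48.1% of the genes that fell. In the replication and S phase list it lay in 13 of 20 genes (65%), so a high share was not particular to the mitosis list. The CHR motif TTTGAA or TTCAAA lay in 35.0% of the mitosis genes and 12.8% of the tested genes. The E2F, TEAD, cAMP response element and AP-1 letters lay in 0, 1, 1 and 0 of the 20 mitosis genes. A match describes the letters and is not a binding site. The windows of 3 of the mitosis genes that fell are shown 5′ to 3′ on the strand of the gene, with CCAAT or ATTGG in capitals; the motif to show was chosen after the counts were seen.
Cdk1 (chr10:69352913-69353162, minus strand): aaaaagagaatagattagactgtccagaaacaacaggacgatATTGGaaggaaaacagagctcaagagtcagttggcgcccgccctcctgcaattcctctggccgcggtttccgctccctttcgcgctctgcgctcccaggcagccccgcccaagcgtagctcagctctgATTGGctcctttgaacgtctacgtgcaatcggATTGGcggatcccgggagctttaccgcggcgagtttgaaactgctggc
Ccnb1 (chr13:100786487-100786736, minus strand): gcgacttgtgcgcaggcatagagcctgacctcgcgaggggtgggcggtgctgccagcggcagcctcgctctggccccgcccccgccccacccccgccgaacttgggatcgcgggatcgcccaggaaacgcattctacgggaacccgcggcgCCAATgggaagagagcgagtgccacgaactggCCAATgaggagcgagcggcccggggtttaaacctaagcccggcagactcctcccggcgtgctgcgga
Bub1b (chr2:118597961-118598210, plus strand): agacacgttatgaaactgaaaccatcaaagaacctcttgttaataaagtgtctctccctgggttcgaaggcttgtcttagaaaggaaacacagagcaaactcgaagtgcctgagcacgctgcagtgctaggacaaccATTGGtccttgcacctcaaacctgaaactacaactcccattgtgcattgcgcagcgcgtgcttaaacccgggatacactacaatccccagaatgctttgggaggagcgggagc
Cdk1 held 3 matches, at 208, 80 and 48 bases before the start, Ccnb1 held 2, at 99 and 67 bases, and Bub1b held 1, at 113 bases.

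Neural progenitor genes fell with the mitosis genes. Of 18 progenitor and radial glia genes, 6 fell, none rose and 12 did not pass, and all 18 had a log2 fold change below 0 (median -1.35, -0.61 in repeat 1 and -1.91 in repeat 2). Notch1, the receptor that keeps progenitors undifferentiated, had 14.2 and 37.4 CPM in PA and 5.64 and 8.09 CPM in PA + PS2 (log2 fold change -1.85, SE 0.19, adjusted p = 0.00200). Lfng, which modifies Notch receptors, went from 2.26 and 9.22 CPM to 0.956 and 0.812 CPM (adjusted p = 0.00836, and 0.191 without PA repeat 2). Nes, the progenitor intermediate filament nestin, fell from 43.5 and 87.4 CPM to 20.2 and 25.3 CPM (log2 fold change -1.46, SE 0.16, adjusted p = 0.00525), and the control stood at 38.0 and 76.6 CPM. In each of these genes repeat 2 of PA was the highest of the 4 libraries and both PA + PS2 libraries were lower than either PA library. Gli3, a transcription factor of hedgehog signalling, also fell (adjusted p = 0.0168, and 0.275 without PA repeat 2). DESeq2 called 9 of the 18 lower with the block and 1 without it. Notch1 and Nes did not pass with DESeq2 without the block (adjusted p = 0.2995 and 0.218). Only Notch1 and Nes of the 6 passed in each fit that left out a single library other than PA + PS2 repeat 2.

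Astrocyte genes fell in 8 of 18 tested members and rose in none, with a median log2 fold change of -0.81. DESeq2 called 8 of the 18 lower with the block and 1 without it. Mlc1, described below, did not pass with DESeq2 without the block (adjusted p = 0.407). The summed level was 418.2 and 723.1 CPM in PA and 373.3 and 426.1 CPM in PA + PS2, so the sum of PA repeat 1 was below that of PA + PS2 repeat 2. Aldh1l1, a folate enzyme used as a marker of astrocytes, had 7.30 and 25.4 CPM in PA and 2.77 and 2.47 CPM in PA + PS2 (log2 fold change -2.55, SE 0.37, adjusted p = 0.0238, and 0.0875 without PA repeat 2). Kcnj10, the potassium channel through which astrocytes buffer potassium and no member of the list, fell from 8.69 and 25.6 CPM to 3.44 and 2.73 CPM (adjusted p = 0.0336, and 0.0935 without PA repeat 2). Mlc1, a membrane protein of astrocyte endfeet, fell from 8.53 and 23.2 CPM to 4.24 and 5.78 CPM (log2 fold change -1.61, SE 0.21, adjusted p = 0.00502), and it was the member that passed in each fit without 1 library other than PA + PS2 repeat 2. Aldoc, a glycolytic enzyme of astrocytes, was called on the pairs alone: PA had 4.13 and 20.2 CPM and PA + PS2 had 1.66 and 4.97 CPM, so the groups overlapped (adjusted p = 0.00406, and 0.165 without PA repeat 2). Gfap, the intermediate filament of mature and reactive astrocytes, was near the detection limit, at 0.226 and 1.36 CPM in PA and 0.255 and 0.747 CPM in PA + PS2 (adjusted p = 0.710). Outside the list, the adhesion protein Hepacam fell from 3.71 and 8.87 CPM to 0.797 and 1.43 CPM (log2 fold change -2.49, SE 0.28, adjusted p = 0.00257). Mt3, a metallothionein of brain cells, fell from 16.6 and 28.3 CPM to 6.31 and 8.58 CPM (log2 fold change -1.58, SE 0.15, adjusted p = 0.00142).

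**Figure D2:**
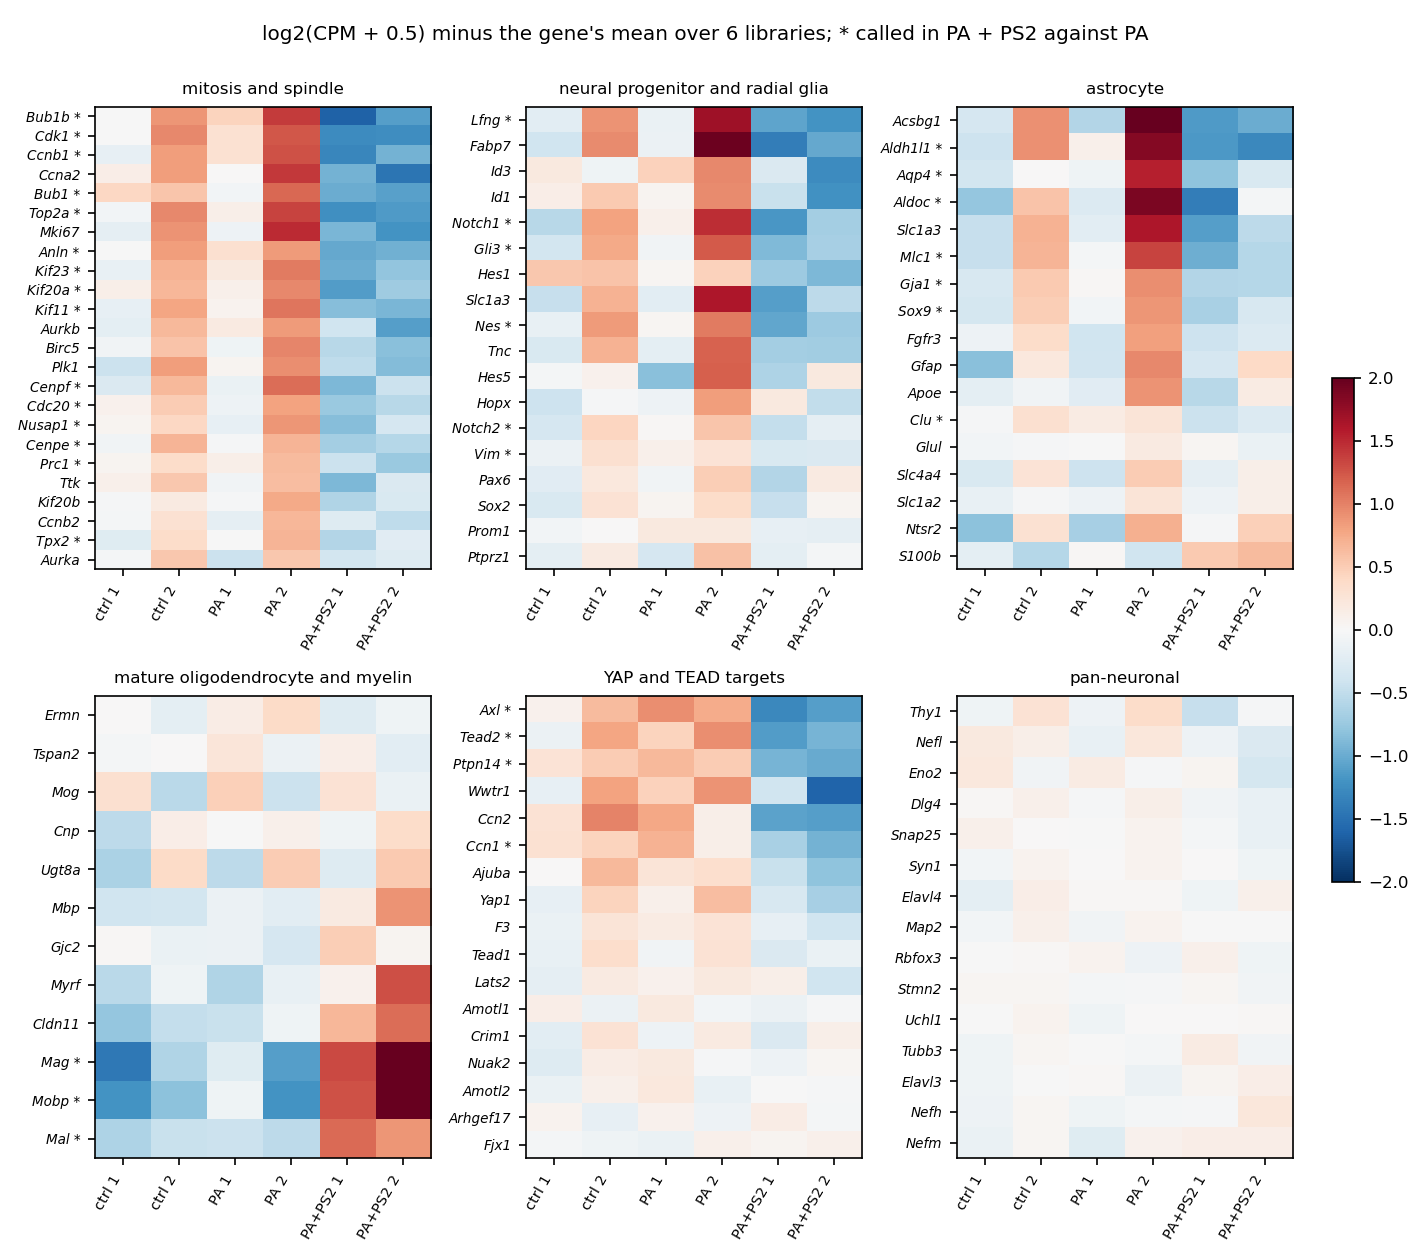
Colour is log2(CPM + 0.5) minus the gene's mean over the 6 libraries, for members of 6 lists in control, PA and PA + PS2 libraries of repeats 1 and 2, saturating at 2; an asterisk marks a gene called in PA + PS2 against PA. In the mitosis, progenitor and astrocyte panels PA repeat 2 is the reddest column and the PA + PS2 columns are mostly blue; in the myelin panel Mag, Mobp and Mal are red in PA + PS2; the pan-neuronal panel is nearly white.

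Both ends of the oligodendrocyte lineage held calls, and the difference between them was not tested. Among 12 precursor genes 2 fell and 10 did not pass, while among 13 genes of mature oligodendrocytes and myelin 4 rose and 9 did not pass, with median log2 fold changes of -0.72 and 0.92. The precursor median rested on repeat 2: it was -0.26 in repeat 1, -1.55 in repeat 2 and -0.26 without PA + PS2 repeat 2. The summed level of the precursor list overlapped between the groups, at 498.5 and 566.7 CPM in PA and 513.1 and 393.1 CPM in PA + PS2. The myelin list had nearly the same median in both repeats, 0.94 and 1.13, and its summed level was 70.8 and 61.1 CPM in PA, 88.97 and 123.2 CPM in PA + PS2, with 55.6 and 58.4 CPM for the control. In the myelin list both PA + PS2 libraries were above the other 4. DESeq2 with the block called 3 precursor genes lower and 2 myelin genes higher.

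Of the 4 myelin genes that rose, 3 are described here; they were close to 0 in PA, and each lost its call without PA repeat 2. None of the 3 was called by DESeq2 with the block, where the adjusted p was 0.890 for Mag and 0.999 for Mobp and Mal was given none. Mag, a myelin adhesion protein, had 0.646 and 0.126 CPM in PA and 2.87 and 5.13 CPM in PA + PS2 (adjusted p = 0.0164). It rested on 24 reads over both PA libraries and 249 over both PA + PS2 libraries, a ratio of 10.4 (exact 95% interval 6.83 to 16.6; such intervals cover counting error only). Mobp, a myelin basic protein of oligodendrocytes, had 18 and 0 reads in PA and 73 and 130 in PA + PS2 (ratio 11.3, exact interval 6.98 to 19.5, adjusted p = 0.0229). Mal, a myelin lipid raft protein, had 2 and 1 reads in PA and 37 and 28 in PA + PS2 (ratio 21.7, exact interval 7.12 to 108.1, adjusted p = 0.0135). All 3 were low in the control too, where the highest value was 0.387 CPM, for Mag.

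In the precursor list the proteoglycan Cspg4, known as NG2 and shared with pericytes, fell from 3.62 and 5.05 CPM to 0.893 and 0.942 CPM (log2 fold change -2.23, SE 0.31, adjusted p = 0.00581). Lhfpl3 fell less, from 29.5 and 25.5 CPM to 19.8 and 13.9 CPM (adjusted p = 0.0306, and 0.101 without PA repeat 2). Olig1, the lineage transcription factor, had 9.75 and 59.6 CPM in PA and 2.45 and 2.37 CPM in PA + PS2. Its PA + PS2 libraries were the lowest of the 6, and the spread between its PA repeats was wide. Whether it passed depended on the fit: it did not with edgeR and the block (log2 fold change -3.67, SE 0.67, adjusted p = 0.203), but did with DESeq2 with and without the block (adjusted p = 0.0106 and 0.0382). It also passed with edgeR without PA repeat 1 or without PA + PS2 repeat 1 (adjusted p = 0.00254 and 0.00536), and did not without PA repeat 2 or without PA + PS2 repeat 2 (adjusted p = 0.0518 and 0.357). Sox10, a factor of the whole lineage, was at 0.517 and 2.71 CPM in PA and 0.446 and 0.617 CPM in PA + PS2 and did not pass (adjusted p = 0.202).

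Targets and partners of YAP and TEAD, the factors through which stiffness, spreading and adhesion act on transcription, gave 4 genes that fell of 17 tested, none that rose and a median log2 fold change of -0.56. Each of the 4 passed in every fit that left out a single library other than PA + PS2 repeat 2. Ccn1, a secreted matrix protein, had 29.3 and 19.6 CPM in PA and 11.3 and 9.10 CPM in PA + PS2, with 22.3 and 24.7 CPM in the control (log2 fold change -1.25, SE 0.17, adjusted p = 0.00581). Axl, a receptor tyrosine kinase, fell from 7.27 and 6.38 CPM to 1.18 and 1.40 CPM (log2 fold change -2.40, SE 0.30, adjusted p = 0.00406). In both genes PA repeat 2 was the lower of the PA libraries. The factor Tead2 fell from 6.98 and 10.04 CPM to 2.04 and 2.40 CPM (log2 fold change -1.93, SE 0.24, adjusted p = 0.00406). The phosphatase Ptpn14, which binds YAP, fell from 7.78 and 7.07 CPM to 2.30 and 2.14 CPM (log2 fold change -1.74, SE 0.23, adjusted p = 0.00535). Summed over the list, the level was 552.6 and 564.2 CPM in PA and 466.8 and 489.8 CPM in PA + PS2. Ccn2, a further secreted target, named after its values were seen, had 17.99 and 11.1 CPM in PA and 4.62 and 4.55 CPM in PA + PS2 and did not pass with edgeR on all libraries (adjusted p = 0.160), but did with DESeq2 and the block (adjusted p = 0.0301).

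The core letters of the TEAD motif, CATTCC or GGAATG, were found in 8 of the 12 members of this list with a promoter sequence (66.7%), in 12.8% of the tested genes with one and in 19.6% of the genes that fell. They lay before Ccn1, Axl and Ptpn14, whose windows are shown 5′ to 3′ on the strand of the gene with the match in capitals, and in the Tead2 window these letters were absent. The members were chosen as targets and partners of YAP and TEAD, so a high share of TEAD letters may follow from that choice. Here too the motif to show was chosen after the counts were seen.
Ccn1 (chr3:145649986-145650235, minus strand): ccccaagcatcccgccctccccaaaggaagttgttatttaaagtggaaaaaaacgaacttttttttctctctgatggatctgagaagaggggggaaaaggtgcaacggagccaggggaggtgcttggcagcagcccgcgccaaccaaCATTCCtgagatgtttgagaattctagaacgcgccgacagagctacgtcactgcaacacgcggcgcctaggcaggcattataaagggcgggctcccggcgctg
Axl (chr7:25788734-25788983, minus strand): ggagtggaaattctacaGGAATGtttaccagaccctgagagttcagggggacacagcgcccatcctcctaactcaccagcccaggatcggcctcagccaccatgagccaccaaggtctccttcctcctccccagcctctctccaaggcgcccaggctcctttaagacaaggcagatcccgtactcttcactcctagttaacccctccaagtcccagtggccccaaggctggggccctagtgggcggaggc
Ptpn14 (chr1:189728018-189728267, plus strand): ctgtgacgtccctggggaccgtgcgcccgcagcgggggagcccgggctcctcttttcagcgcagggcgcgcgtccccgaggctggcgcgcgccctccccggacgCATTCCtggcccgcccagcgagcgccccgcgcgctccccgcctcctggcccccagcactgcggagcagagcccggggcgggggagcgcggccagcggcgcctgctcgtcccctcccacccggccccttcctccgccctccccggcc
The match lay 103 bases before the start of Ccn1, 233 before that of Axl and 146 before that of Ptpn14.

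Receptors and components of the matrix fell as well. Of 14 integrin subunits tested, 5 fell and none rose (median log2 fold change -0.69), where 1.39% of all genes tested fell. Itgb1, the beta subunit shared by the laminin-binding integrins, had 121 and 129 CPM in PA and 83.4 and 83.5 CPM in PA + PS2, against 109 and 132 CPM in the control. The PA + PS2 libraries were alike and below the other 4, a 1.5-fold fall (log2 fold change -0.58, SE 0.08, adjusted p = 0.00581). Itga6, which pairs with Itgb1 as a laminin receptor, went from 25.4 and 41.4 CPM to 19.1 and 24.2 CPM (log2 fold change -0.60, SE 0.12, adjusted p = 0.0242, and 0.337 without PA repeat 2). Itgav, the alpha subunit of vitronectin and TGF-beta activating receptors, fell from 15.9 and 20.5 CPM to 9.31 and 8.93 CPM (adjusted p = 0.00753, and 0.0574 without PA repeat 2). Its partner Itgb5 fell from 8.75 and 14.4 CPM to 4.14 and 2.34 CPM (adjusted p = 0.0375, 0.363 without PA repeat 2, and 0.118 with DESeq2 and the block). The fifth, Itgb8, named for this count, also lost its call without that library.

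Among 34 matrix and basement membrane genes 5 fell, none rose and 31 had a log2 fold change below 0 (median -0.75). Over all genes tested, 1.39% fell and 8529 of 17299 lay below 0. Lamc1, the gamma chain of most laminins, had 58.5 and 61.6 CPM in PA and 41.9 and 39.7 CPM in PA + PS2 (log2 fold change -0.56, SE 0.10, adjusted p = 0.0196), and the control stood at 55.1 and 68.4 CPM. Lama1, the laminin alpha chain from which the IKVAV sequence was first taken, had 8.95 and 9.25 CPM in PA and 5.04 and 6.66 CPM in PA + PS2 and did not pass (log2 fold change -0.64, SE 0.18, adjusted p = 0.119). Both PA + PS2 libraries lay below the other 4 in each of these laminin chains. Col12a1, a collagen of fibril surfaces, fell from 22.1 and 20.7 CPM to 11.5 and 10.4 CPM (log2 fold change -0.97, SE 0.17, adjusted p = 0.0178). Col18a1, a basement membrane collagen, fell from 18.9 and 13.6 CPM to 8.32 and 4.03 CPM (adjusted p = 0.0178, and 0.0798 without PA repeat 2). The secreted glycoprotein Fstl1 fell from 81.7 and 84.3 CPM to 58.1 and 48.9 CPM (log2 fold change -0.64, SE 0.10, adjusted p = 0.00753). The laminin chain Lamb2 was the fifth of the 5, named for this count, and did not pass without PA repeat 2. In a focal adhesion and contractile actin list 2 of 26 genes fell, the actin-binding proteins Tagln2 and Tpm4, and Tpm4 did not pass without PA repeat 2 (adjusted p = 0.0917). DESeq2 with the block called 9 matrix genes and 5 focal adhesion genes, all lower. The cytoskeletal linker Msn fell from 21.2 and 25.6 CPM to 8.10 and 7.37 CPM (log2 fold change -1.59, SE 0.19, adjusted p = 0.00467).

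Cells of vessels and meninges also make such matrix, and their markers moved too. In a fibroblast and mural list 4 of 14 tested genes fell and none rose (median log2 fold change -1.03). They were Rgs5, Pdgfrb, Mgp and Cspg4, and Cspg4 is also 1 of the 2 precursor genes that fell. The summed level of the list was 166.6 and 120.4 CPM in PA and 91.7 and 41.1 CPM in PA + PS2, with the control at 136.9 and 168.8 CPM. Rgs5, a pericyte marker, fell from 10.5 and 9.91 CPM to 3.28 and 4.91 CPM (log2 fold change -1.33, SE 0.22, adjusted p = 0.0127). Pdgfrb, the pericyte receptor for platelet-derived growth factor, fell from 7.69 and 4.39 CPM to 2.42 and 1.46 CPM (adjusted p = 0.0229). Mgp, a matrix protein of vessel walls, had 17 and 35 reads in PA and 1 and 0 in PA + PS2 (PA over PA + PS2 51.8, exact 95% interval 8.90 to 2087, adjusted p = 0.0395, and 0.0936 without PA repeat 2). None of 5 endothelial genes passed, at a summed 11.04 and 7.04 CPM in PA and 5.71 and 5.10 CPM in PA + PS2, nor did any of 9 microglial genes, at 15.1 and 13.9 CPM and 12.8 and 13.4 CPM. Of the 5 endothelial genes 2, and of the 9 microglial genes 1, had an unadjusted p under 0.05, against 12.2% of all genes tested. DESeq2 called none in either list. The part that fewer mural, glial or progenitor cells had in the matrix, integrin and YAP and TEAD values was not tested.

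**Figure D3:**
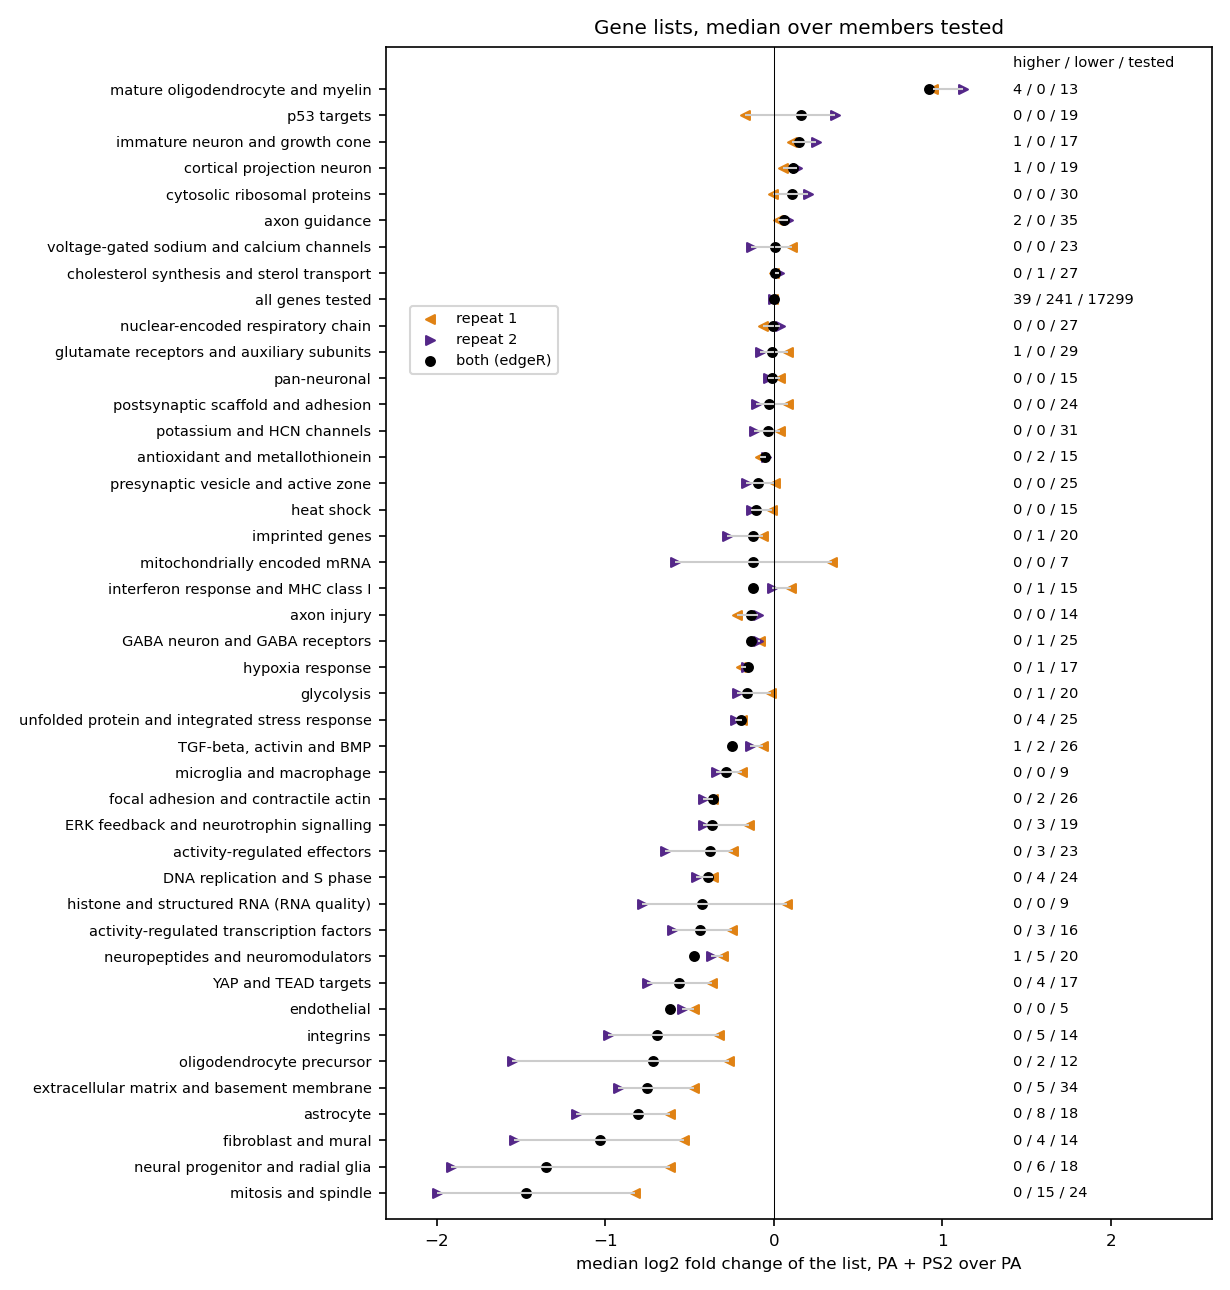
Median log2 fold change of each gene list, PA + PS2 over PA, from edgeR with both repeats (black circles) and in repeat 1 (orange) and repeat 2 (purple) alone; the right column counts members called higher, called lower and tested. Mitosis (-1.47) and progenitor (-1.35) lists lie lowest and the myelin list (0.92) highest, while the pan-neuronal list (-0.01) is at the median of all genes.

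Activity-regulated genes, those that neuronal firing and calcium entry induce, were lower with PEDOT-S in 14 of 16 transcription factors and 21 of 23 effectors. Over all genes tested, 8529 of 17299 lay below 0. In each list 3 genes passed, all lower, where 1.39% of all genes tested fell. DESeq2 without the block called 1 factor and 4 effectors lower. The list medians were -0.44 and -0.38. The medians were larger in repeat 2 (-0.60 and -0.65) than in repeat 1 (-0.25 and -0.24). Fos, the classic immediate early gene, had 59.2 and 71.6 CPM in PA, 44.7 and 34.6 CPM in PA + PS2, with the control at 63.6 and 61.0 CPM (log2 fold change -0.73, SE 0.13, adjusted p = 0.0251, and 0.101 without PA repeat 2). Both PA + PS2 libraries were below the other 4. The nuclear receptor Nr4a1 had 63.4 and 67.5 CPM in PA and 51.8 and 39.7 CPM in PA + PS2 (adjusted p = 0.0322), and Fosl2, a Fos relative, had 278 and 408 CPM and 236 and 265 CPM (adjusted p = 0.0308). Both lost the call without PA repeat 2, at adjusted p = 0.350 and 0.406. Bdnf, the neurotrophin that activity induces, had 58.1 and 77.3 CPM in PA and 47.0 and 37.5 CPM in PA + PS2 and did not pass (log2 fold change -0.68, SE 0.16, adjusted p = 0.0973).

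Scg2, a granin of dense core vesicles and the precursor of secretoneurin, was the effector whose call held in each fit without 1 library other than PA + PS2 repeat 2. It had 333 and 339 CPM in PA, 243 and 182 CPM in PA + PS2, with the control at 382 and 328 CPM, a 1.60-fold fall (log2 fold change -0.68, SE 0.09, adjusted p = 0.00581). Dusp4, a phosphatase that ends ERK signalling, and Rgs2, which shortens G protein signals, fell less (log2 fold changes -0.37 and -0.48, adjusted p = 0.0308 and 0.0335, and 0.291 and 0.353 without PA repeat 2). In an ERK feedback list 3 of 19 genes fell and none rose, Etv4 and Spry4 besides Dusp4, and none of the 3 passed without PA repeat 2.

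Neuropeptide and neuromodulator genes gave 1 gene that rose and 5 that fell among 20 (median log2 fold change -0.47). Igf1, insulin-like growth factor 1, had 37.3 and 26.0 CPM in PA and 22.4 and 14.3 CPM in PA + PS2 (log2 fold change -0.79, SE 0.12, adjusted p = 0.00783). Tac1, the precursor of substance P, fell from 3.55 and 2.78 CPM to 1.18 and 0.780 CPM (log2 fold change -1.69, SE 0.32, adjusted p = 0.0234, and 0.111 without PA repeat 2). Scg2, Chgb and Pdyn made up the 5, the last 2 named for this count and not passing without PA repeat 2. The gene that rose was Nos1, the neuronal nitric oxide synthase (chr5:117781032-117958840). It had 56.7 and 51.7 CPM in PA, 87.7 and 76.2 CPM in PA + PS2, with the control at 57.5 and 55.4 CPM, a 1.51-fold rise (log2 fold change 0.60, SE 0.08, adjusted p = 0.00560). Both PA + PS2 libraries lay well above the other 4, and the change was of like size in both repeats, 0.63 and 0.56.

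Fst, follistatin, which binds and blocks activins, rose in both repeats. On chr13:114452290-114458951, it had 26.8 and 17.8 CPM in PA, 51.6 and 42.2 CPM in PA + PS2, with the control at 24.8 and 17.4 CPM. Both PA + PS2 libraries stood above the other 4 by a wide margin, a 2.13-fold rise (log2 fold change 1.09, SE 0.11, adjusted p = 0.00156, and 0.000955 without PA repeat 2). In the TGF-beta, activin and BMP list of 26 genes, it was the only one that rose with edgeR or with DESeq2 and the block. Bmp7 and Fstl1 fell, and DESeq2 called 4 of the list lower. Bmp7, a bone morphogenetic protein, had 2.07 and 3.41 CPM in PA and 0.638 and 0.422 CPM in PA + PS2 (adjusted p = 0.0178, and 0.171 without PA repeat 2). A gene on the opposite strand overlaps the span of Fst, and since no source used here gives the strand setting of the counting, reads of such pairs cannot be told apart. The same holds for 17 of the 39 genes that rose and 101 of the 241 that fell, and for 7538 of all 17299 genes tested.

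Several other genes that rose are known from neurons, and their changes were small. Lmo4, a transcription cofactor of cortical projection neurons, had 199 and 169 CPM in PA, 260.3 and 265 CPM in PA + PS2, where both libraries stood above the other 4 (log2 fold change 0.52, SE 0.08, adjusted p = 0.00705). It was the only gene of 19 in the projection neuron list to pass. Cntn2, an axonal adhesion molecule of the contactin family, rose from 148 and 151 CPM to 188 and 259 CPM (adjusted p = 0.0164, and 0.101 without PA repeat 2). Cbln1, a secreted synapse organiser, rose from 30.5 and 32.6 CPM to 45.2 and 43.8 CPM (log2 fold change 0.50, SE 0.10, adjusted p = 0.0254, and 0.0908 without PA repeat 2). Grik4, a kainate receptor subunit, rose from 8.203 and 9.19 CPM to 13.5 and 14.3 CPM (log2 fold change 0.67, SE 0.15, adjusted p = 0.0411), the only one of 29 glutamate receptor genes to pass. Adra2a, the alpha-2A adrenergic receptor, rose from 13.9 and 17.7 CPM to 21.5 and 27.5 CPM (adjusted p = 0.0229). The calls of Grik4 and Adra2a were lost without PA repeat 2 (adjusted p = 0.219 and 0.2005). Fam19a1, Tmtc1, Slc16a6, Hivep3, St6galnac5, Runx1t1 and Foxred2 are also among the genes of at least 5 CPM with the highest fold changes, at log2 fold changes between 0.50 and 0.85, and none of the 7 passed without PA repeat 2.

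**Figure D4:**
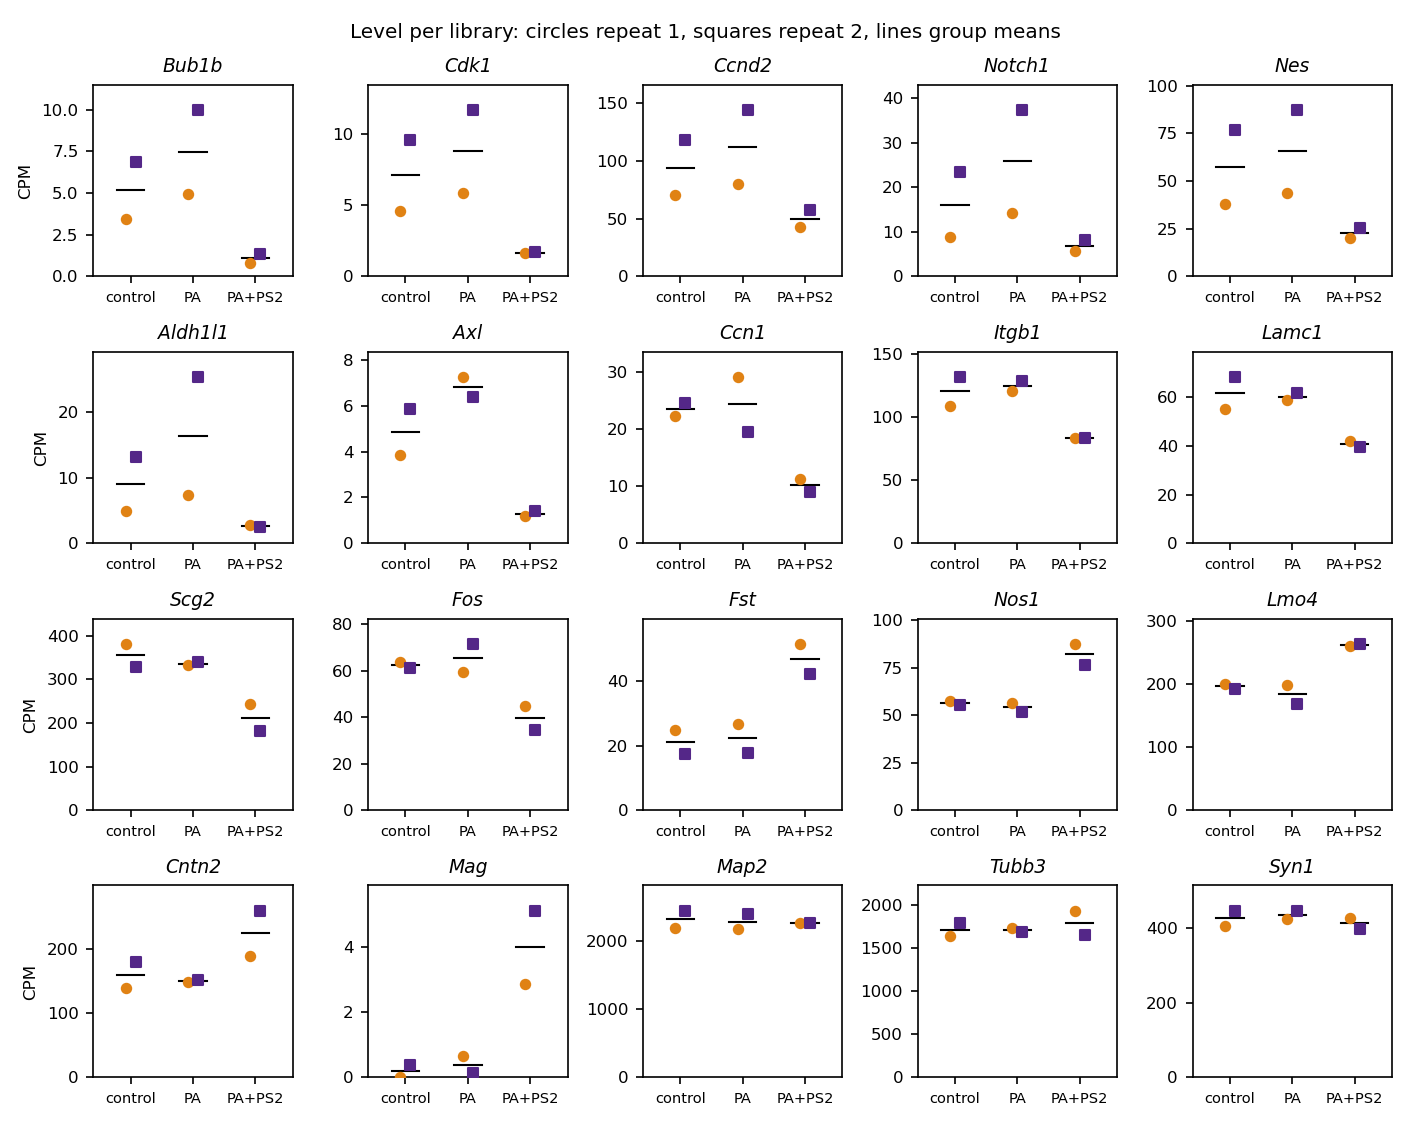
Level in CPM of 20 genes in each library of the control, PA and PA + PS2 groups, with circles for repeat 1, squares for repeat 2 and lines for the means of the 2 repeats; each panel has its own scale from 0. From Bub1b to Fos the PA + PS2 points lie below all others, from Fst to Mag above all others, and for Map2, Tubb3 and Syn1 the groups overlap.

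Growth cone and immature neuron genes lay slightly higher. Of 17 tested genes 16 had a log2 fold change above 0 (median 0.15), where 8770 of all 17299 genes tested did. DESeq2 with the block called 3 of the 17 higher. With edgeR and the block Draxin, an axon guidance protein, was the one that passed, where 0.225% of all genes tested rose. It had 79.4 and 62.5 CPM in PA and 104 and 83.5 CPM in PA + PS2 (log2 fold change 0.40, SE 0.08, adjusted p = 0.0296, and 0.202 without PA repeat 2). Sox11, a factor of new neurons, had 786 and 761 CPM in PA and 899 and 1202 CPM in PA + PS2 (adjusted p = 0.0739 with edgeR and 0.00351 with DESeq2, both with the block), and Cd24a had 666 and 649 CPM and 761 and 819.5 CPM (adjusted p = 0.0697 and 0.0342). In these genes both PA + PS2 libraries were above both PA libraries. Among 35 axon guidance genes, the semaphorin receptor Nrp2 and the netrin receptor Unc5a rose (log2 fold changes 0.41 and 0.38, adjusted p = 0.0456 and 0.0480), and neither passed without PA repeat 2.

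Neuronal identity genes showed no call with edgeR. Of 15 pan-neuronal genes none passed, with a median log2 fold change of -0.01 and summed levels of 8622 and 8890 CPM in PA and 9039 and 8578 CPM in PA + PS2. Map2 had 2165 and 2391 CPM in PA and 2261 and 2260.4 CPM in PA + PS2 (log2 fold change -0.01, SE 0.06, adjusted p = 0.979). Rbfox3, which encodes the marker NeuN, had 106 and 93.4 CPM and 107 and 94.9 CPM (log2 fold change 0.02, SE 0.08, adjusted p = 0.953). The values of the groups overlapped in both. Syn1, a synaptic vesicle protein, had 424 and 445 CPM in PA and 426 and 397 CPM in PA + PS2 (adjusted p = 0.749). Dlg4, the postsynaptic scaffold PSD-95, had 474 and 520.2 CPM and 459 and 435 CPM (log2 fold change -0.15, SE 0.07, adjusted p = 0.411). A p above the threshold does not show that these genes were equal; their standard errors, 0.06 to 0.08, lie near the median of 0.07 for genes above 100 CPM. Among the 15 genes 3 had an unadjusted p under 0.05, a larger share than the 12.2% of all genes tested, and DESeq2 called none.

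Channel and synapse lists held no call either. None of 23 voltage-gated sodium and calcium channel genes, 31 potassium and HCN channel genes, 25 presynaptic genes and 24 postsynaptic genes passed, with medians of 0.01, -0.03, -0.09 and -0.03. At an unadjusted p under 0.05 the lists held 5, 9, 5 and 6 genes, each a larger share than the 12.2% of all genes tested. DESeq2 called none in any of them, and the lists were not shown to be unchanged. The nearest were Cacnb3, a calcium channel beta subunit, at 195 and 162 CPM in PA and 235 and 192 CPM in PA + PS2 (adjusted p = 0.0936), and Kcnj3, a G protein-gated potassium channel, at 100.4 and 114 CPM and 89.8 and 78.2 CPM (adjusted p = 0.0884). In the GABA list 1 of 25 genes passed, where 1.62% of all genes tested did. It was Gad1, the main enzyme of GABA synthesis, at 394 and 320.0 CPM in PA and 307 and 272 CPM in PA + PS2 (log2 fold change -0.30, SE 0.07, adjusted p = 0.0492). The call was lost without PA repeat 2.

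Stress and metabolic lists held between 0 and 4 calls each. The list of the unfolded protein and integrated stress responses had a median log2 fold change of -0.19, and 20 of its 25 genes lay below 0. Of the 25, 4 fell and none rose, where 1.39% of all genes tested fell. They were the endoplasmic reticulum chaperones Hsp90b1 and Hspa5 and the serine synthesis enzymes Phgdh and Psat1, the latter 2 induced by ATF4, and none of the 4 passed without PA repeat 2. Hspa5 had 448 and 461 CPM in PA and 382 and 323 CPM in PA + PS2 (log2 fold change -0.37, SE 0.08, adjusted p = 0.0336). No gene passed among 15 heat shock, 19 p53 target, 14 axon injury, 27 respiratory chain and 30 ribosomal protein genes. At an unadjusted p under 0.05 these lists held 2, 0, 4, 1 and 5 genes, where 12.2% of all genes tested had such a p. DESeq2 with the block called 2 axon injury genes and none in the others. The p53 targets had opposite medians in the repeats, -0.17 and 0.36, and their summed level was 616.4 and 588.1 CPM in PA and 564.1 and 961.4 CPM in PA + PS2, so PA + PS2 repeat 2 stood apart. The mitochondrially encoded mRNAs also went opposite ways, 0.34 in repeat 1 and -0.59 in repeat 2, with 7 of 13 members tested. The other 6, mt-Co2 and mt-Co3 among them, had 0.0947 CPM or less in every library. A list of histone and structured RNAs went opposite ways too, at 0.08 and -0.78, with 9 of 15 members tested. Its members Rmrp, Rpph1, Rn7s1 and Rn7s2 had 0 CPM in every library. The list's level thus came from its other members and is not read here as a sign of RNA handling. Its summed level was 460.6 and 827.1 CPM in PA and 565.8 and 450.1 CPM in PA + PS2, and its part in the results was not tested. Epas1, the hypoxia-inducible factor HIF-2 alpha of endothelial and mural cells and glia, was the 1 of 17 hypoxia genes that passed, falling from 9.72 and 5.27 CPM to 1.69 and 1.72 CPM (log2 fold change -2.12, SE 0.33, adjusted p = 0.00979). Peg10, of retroviral origin, was the 1 of 20 imprinted genes that passed, falling from 296 and 284 CPM to 213 and 219.8 CPM (log2 fold change -0.42, SE 0.07, adjusted p = 0.0103). Single genes also fell in the interferon (Ifitm3), glycolysis (Aldoc) and cholesterol (Abca1) lists, and 2 metallothioneins, Mt3 and Mt1, in the antioxidant list; of these, Mt3 alone passed without PA repeat 2, and Abca1 did not pass with DESeq2 and the block.

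**Figure D5:**
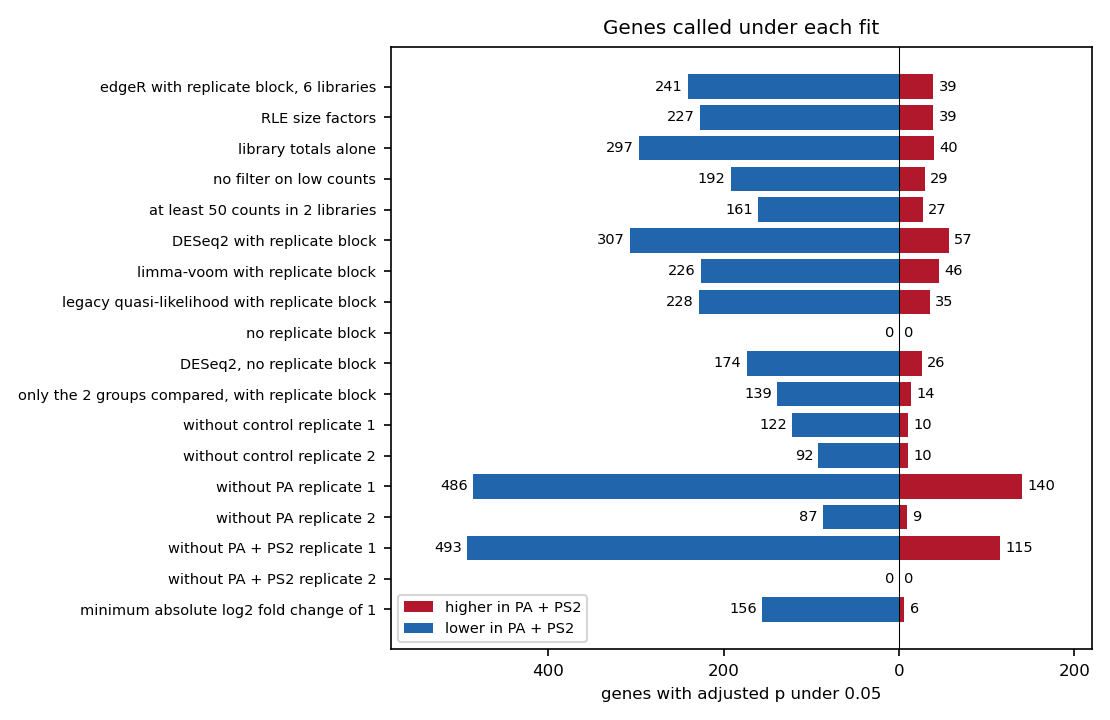
Number of genes called lower (blue, to the left) and higher (red, to the right) in PA + PS2 against PA at an adjusted p under 0.05, under each fit. Counts are 241 lower and 39 higher in the reported fit, lie between 161 and 307 lower and 27 and 57 higher when scaling, filter or tool changes with the block kept, are 0 with edgeR without the replicate block and without PA + PS2 replicate 2, and reach 493 lower without PA + PS2 replicate 1.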

How the data were processed

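PolyA RNA of 6 libraries was sequenced after a TruSeq Total RNA preparation, per the labels' protocols. The authors deposited one table of whole-number read counts per gene for each library, keyed by Ensembl gene ID. Tools listed in the submitters' processing notes, with no settings, are HTSeq 2.0.2, STAR 2.7.5, DESeq2 1.14.1 and cutadapt 4.2, and the build is mm10. No source used here gives the strandedness, and genes with near-identical copies, such as the metallothioneins, may share reads. Gene symbols and coordinates came from GENCODE M21 (GRCm38), which matched 54165 of 54232 IDs.

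Counts were tested with edgeR 4.0.16 (R 4.3.3; default expression filter, TMM factors, quasi-likelihood fit over all 6 libraries with group and repeat number, 2 residual degrees of freedom) and Benjamini-Hochberg adjustment over 17299 genes, tested on simulated data first. Repeat numbers are in the labels, but no shared litter, batch or day is given for them. The repeat differences of the 3 groups correlated across genes at r = 0.35, 0.36 and 0.21, and the comparison was set up with the repeats as pairs. The biological coefficient of variation was 9.57% with the block and 16.7% without. Replicates differed by more than counting noise in each group (chi-square per degree of freedom 14.6 to 21.1).

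Genes named are the 15 highest and 15 lowest called log2 fold changes at 5 CPM or more with non-overlapping groups, the 8 smallest p, the 4 smallest p of each of 42 lists, and 10 fixed genes; exceptions are stated, and some genes are not reported here. The members, lists and tests were chosen with earlier results of these data known. Alternatives used DESeq2 1.42.0 and limma 3.58.1. Promoter sequences came from RefSeq (GRCm38.p6).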

Additional observations from a re-analysis of the deposited data

How the results depend on the processing

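All 280 genes called kept their direction under every alternative in which they were tested. The alternatives use the same libraries and each gene had the same sign in both repeats, so this is no separate support for the calls. The count of 280 (39 higher, 241 lower) stayed within 1.5 times under DESeq2's scaling in edgeR (266), library totals (337), no filter on low counts (221), at least 50 counts in 2 libraries (188), DESeq2 with the replicate block (364), limma-voom (272), the legacy quasi-likelihood method (263) and DESeq2 without the block (200, of which 157 were shared). It moved further under 3 settings. With no replicate block, edgeR called 0 genes, 0 higher and 0 lower (smallest adjusted p = 0.36). Fitting only the PA and PA + PS2 libraries with the replicate block gave 153 genes, 14 higher and 139 lower, and requiring an absolute log2 fold change of 1 gave 162, 6 higher and 156 lower. Leaving out each library in turn gave 0 to 626 genes, 0 to 140 higher and 0 to 493 lower: 132 without control repeat 1, 102 without control repeat 2, 626 without PA repeat 1, 96 without PA repeat 2, 608 without PA + PS2 repeat 1 and 0 without PA + PS2 repeat 2; the group left with 1 library is then assumed to vary like the others, and the cause was not tested. Other scalings moved the median log2 fold change of all genes by under 0.1. Depth limits the scarce genes: under 1 CPM the median standard error was 0.63, and 6 of 3661 genes were called there.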
